A study of Homo sapiens with 2 samples.

Results

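UBR4 and HUWE1 encode a pair of giant E3 ubiquitin ligases, and the peaks named for their mRNAs in an RNA immunoprecipitation sequencing (RIP-seq) experiment on PTBP1 are described here. Both genes were chosen from the peak values of these same tables, so their counts, folds and tags are given as a description, with no test. All rows of the mRNA table with the symbol UBR4 or HUWE1 were taken, which gave 10 peaks for UBR4 and 9 peaks for HUWE1, 19 of the 8479 peaks and 2 of the 5186 genes of that table. The experiment used MKN-28, a human gastric cancer line kept in culture, with no treatment named. Cell extract was incubated with beads that carried a PTBP1 antibody in 1 library and normal rabbit IgG in the other, the latter as the negative control. Every fold given is the authors' enrichment of the PTBP1 library over the IgG background, and every peak lies on the hg19 build. With 1 library per group there was no replicate, so no difference between PTBP1 and IgG can be set against replicate error.

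PTBP1 belongs to the hnRNP family and recognizes stretches of pyrimidines in RNA, through which it influences the splicing, decay and translation of its targets. Ubiquitin ligases are the enzymes that choose which proteins receive ubiquitin. UBR4 carries a UBR box, the fold by which some ligases read destabilizing residues at the N-terminus of proteins (N-degrons), and it works with KCMF1 and calmodulin. HUWE1 belongs to the HECT class, whose members take ubiquitin onto a cysteine of their own before they pass it on, and it is known for acting on MCL1 and other regulators of survival and proliferation. The HUWE1 gene is also the host of the microRNA genes MIRLET7F2 and MIR98.

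The sequences that bear on the HUWE1 locus are shown first. Peaks inside HUWE1 were named for the hosted microRNAs in the lncRNA table, as described below, and these microRNAs share 1 seed, shown in capitals (bases 2 to 8 of the RefSeq mature sequences, GRCh38.p14, chromosome X, minus strand).
hsa-let-7f-5p: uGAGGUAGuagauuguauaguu
hsa-miR-98-5p: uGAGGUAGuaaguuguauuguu
Both are 22 bases long, differ at 3 positions outside the seed and belong to the let-7 family, which is known for repressing growth-promoting mRNAs such as HMGA2.

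A peak also lay just inside the start of HUWE1, so the window around that start is shown, with the first 50 transcribed bases in capitals (RefSeq, GRCh38.p14, chrX:53686670-53686969, minus strand).
HUWE1 start: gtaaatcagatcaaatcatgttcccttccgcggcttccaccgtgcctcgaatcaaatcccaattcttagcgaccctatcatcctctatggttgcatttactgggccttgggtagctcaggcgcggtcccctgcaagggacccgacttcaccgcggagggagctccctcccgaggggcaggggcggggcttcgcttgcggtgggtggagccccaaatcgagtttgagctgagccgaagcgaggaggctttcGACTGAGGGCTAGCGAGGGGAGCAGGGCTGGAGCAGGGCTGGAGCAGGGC
RefSeq lists 3 HUWE1 starts, and this one was taken because its distance to the MIRLET7F2 start, 129445 bases, is 6 bases from the 129439 bases between the same features in the deposited tables. The other starts lie 126862 and 126571 bases away. The pyrimidine motif TCTTC, which in its RNA form is known to be bound by PTBP1, was not in this window on either strand, while 29.9% of 35116 RefSeq promoter windows of the same length held it on the transcribed strand and 51.1% on either strand. The longer motif CTCTCT was not in the window either, against 12.7% and 24.4% of all windows. These counts describe the letters of the window only, most of which lies before the transcript and outside the peak.

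The first question was how the number of peaks on these genes compares with other genes. UBR4 ranked 3rd and HUWE1 tied for 4th by number of peaks among the 5186 genes, of which 3020 had a single peak. Only ADARB2 (31 peaks) and NBPF20 (12 peaks) had more than UBR4, NBPF8 had as many as HUWE1 with 9, and DPYSL2 and GATAD2B were the leaders by tags of the 7 genes with 8. UBR4 had more exon peaks than any other gene of the table, with 9. CEP350, a centrosomal protein gene, came next with 7 exon peaks, and HUWE1 was among the 20 genes with at least 5. The high peak counts of ADARB2 and NBPF20 were of another kind, with 1 and 0 exon peaks.

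**Figure D1:**
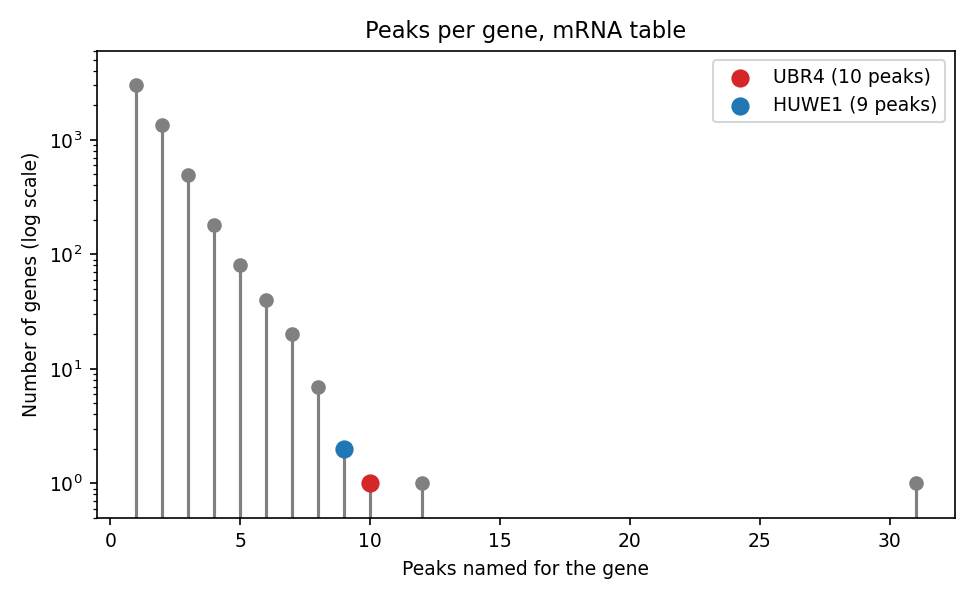
Number of genes (log scale) against the number of peaks named for a gene, for the 5186 genes of the mRNA table. Grey points are counts of genes, and coloured points mark the bins of UBR4 (10 peaks) and HUWE1 (9 peaks, a bin it shares with NBPF8), both far to the right of the 3020 genes with 1 peak.

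Length was part of the setting. The listed transcripts span 136 kb for UBR4 (NM_020765) and 155 kb for HUWE1 (NM_031407). Among the 550 genes of the mRNA table whose longest listed transcript spans 100 to 200 kb, the median was 2 peaks, the upper quartile 3 peaks, and the highest count apart from UBR4 and HUWE1 was 8. Per 100 kb of span there were 7.37 peaks for UBR4 and 5.82 for HUWE1. Genes without any peak are not in the table, so this comparison covers genes with at least 1 peak.

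The rank by peaks did not carry over to tags, the sequenced fragments counted in a peak. The UBR4 peaks held 113 tags in all and the HUWE1 peaks 140, which ranked 833rd and 706th of the 5186 genes, against a median of 24 tags per gene. A single peak held at least 20 tags in each gene, 1 of 10 for UBR4 and 1 of 9 for HUWE1, while 36.6% of all mRNA peaks did. Both genes were therefore marked by many small peaks. Their deposited false discovery rates lay between 43.43% and 72.97%, and no peak of the mRNA table had one below 43.06%. The median rate was 48.06% for UBR4 and 45.54% for HUWE1, against 44.97% for all mRNA peaks. The highest rate, 72.97%, belonged to the UBR4 peak of 37 tags. That peak also had the highest p score (negative log10 of p multiplied by 10) of both genes, 137.76.

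The second question was how the peaks are placed along UBR4. The gene is on the minus strand of chromosome 1, with its listed start at 19536746 and its listed end at 19400999, and 9 of its 10 peaks lay inside it, all of the exon class. The first 45171 bases of the transcript held no peak, and from there the peaks were spread to 92.6% of the span.

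The most 5′ exon peak (19491290 to 19491575) lay 33.4% along the transcript with 6 tags and 8.96-fold enrichment. The next (19480206 to 19480463, 41.6%) had 7 tags and 7.31-fold, the lowest fold of the gene. The one after it (19464471 to 19464742, 53.1%) had 6 tags and 8.52-fold. These first 3 peaks were thus alike, small and of moderate fold.

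A cluster of 3 exon peaks followed between 63.1% and 68.5% of the span, separated by gaps of only 3068 and 3741 bases. Its members had 9 tags and 13.81-fold (19451001 to 19451294), 10 tags and 13.21-fold (19447680 to 19447932), and 8 tags and 10.69-fold (19443683 to 19443938). All of them exceeded the folds of the 3 peaks before.

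After a gap of 20432 bases, the longest between the peaks inside UBR4, came the peak with the highest fold of the gene and of both genes. It covered 19422791 to 19423250 with 11 tags and 18.4-fold enrichment, a fold at the 98.4th percentile of all mRNA peaks. Its tag count, in contrast, was at the 43.2nd percentile. The last exon peaks had 10 tags and 7.91-fold (19415247 to 19415549) and 9 tags and 11.93-fold (19410941 to 19411194), and the final 9942 bases of UBR4 held no peak.

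The UBR4 exon peaks were uniform in size. Their lengths ran from 253 to 460 bases with a median of 272, against a median of 529 for all mRNA peaks, and their tags ran from 6 to 11. Their folds covered a range from 7.31 to 18.4 with a median of 10.69, and every UBR4 peak was above the median of 7.08 of all mRNA peaks. Across the 20 genes with at least 5 exon peaks, the median fold per gene ran from 3.43 to 12.88, with 11.31 for UBR4.

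The remaining UBR4 peak lay outside the gene. It was of the upstream class, with its midpoint 5932 bases before the UBR4 start (19542248 to 19543108), and it was the largest in length (861 bases) and tags (37), with 12.38-fold enrichment. It held 32.7% of the tags named for UBR4. The lncRNA LOC101927895, which is transcribed in the opposite direction from a start 133 bases away from that of UBR4, has its listed span over this peak. The peaks carry no strand, so the RNA from which these tags came cannot be told apart. Without an hg19 gene annotation, genes for which no mRNA peak was named, such as EMC1, were not placed against this peak. They remain possible sources that were not tested. Without this peak UBR4 keeps 9 peaks and 76 tags.

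**Figure D2:**
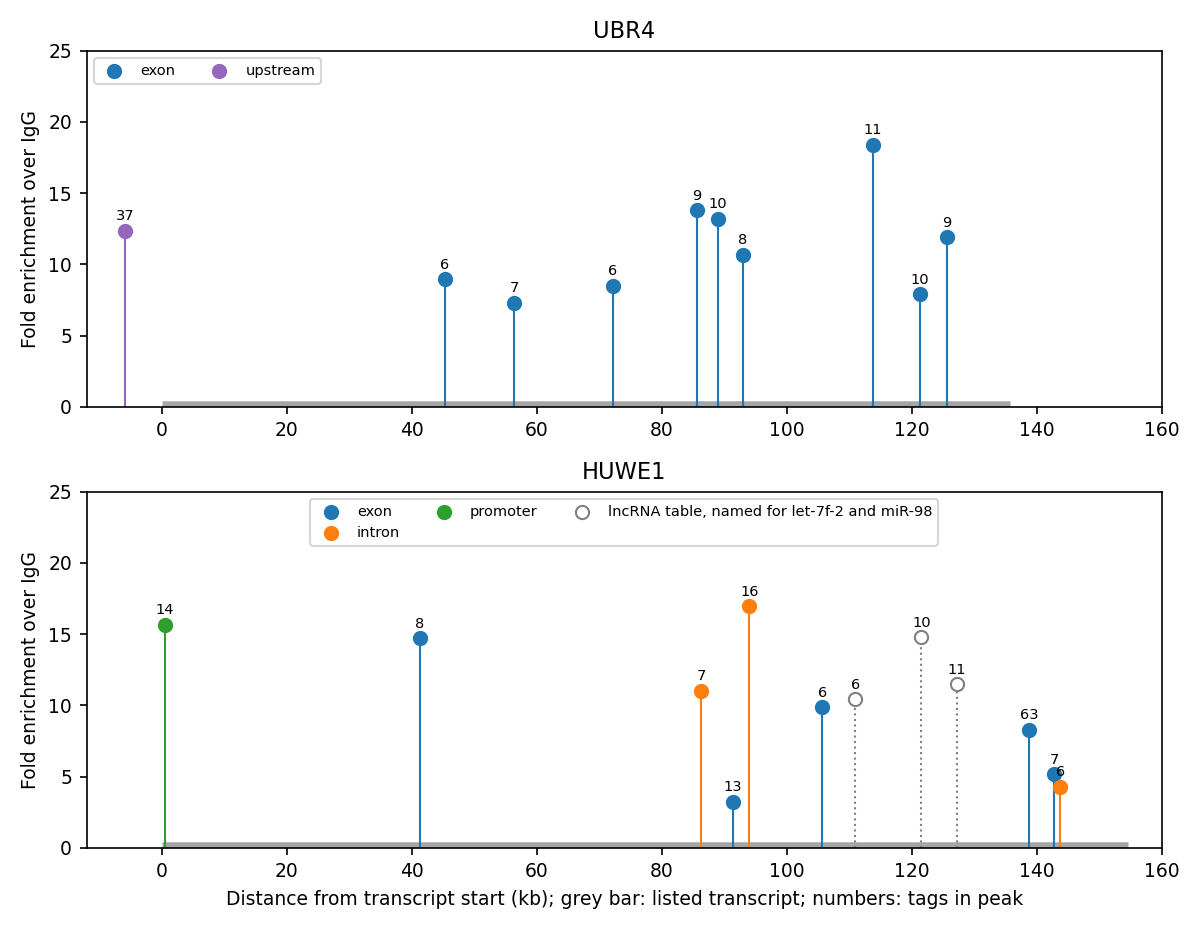
Fold enrichment over IgG (vertical axis) of every peak against the distance of its midpoint from the transcript start in kb (horizontal axis), with UBR4 above and HUWE1 below. Colours give the annotation class, the number at each point is its tags, the grey bar is the listed transcript, and open points are the 3 lncRNA-table peaks inside HUWE1. UBR4 has only exon peaks inside the gene, and HUWE1 has exon, intron and promoter peaks.

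HUWE1 lies on the minus strand of chromosome X, with its listed start at 53713674 and its listed end at 53559056. All 9 of its peaks were inside the gene, 5 of the exon class, 3 of the intron class and 1 of the promoter class. The promoter peak (53712767 to 53713670) began 4 bases inside the listed start and ran 904 bases into the gene, with 14 tags and 15.66-fold enrichment. UBR4 had no peak within this class, which took in peaks up to 1999 bases from a start on both sides.

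A gap of 40229 bases separated the promoter peak from the first exon peak of HUWE1 (53672200 to 53672537), which had 8 tags and 14.72-fold enrichment. After a further 44553 bases without a peak, the longest gap between peaks inside either gene, 4 peaks followed between 55.8% and 68.4% of the span. The first of them was an intron peak (53627098 to 53627646) of 7 tags at 11.04-fold.

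The neighbouring exon peak (53622161 to 53622447) had 13 tags and 3.25-fold enrichment, the lowest fold of both genes. Only 2158 bases further, an intron peak of 16 tags (53619334 to 53620002) reached 16.96-fold, the highest fold of HUWE1. Similar tag counts thus went with very different folds at adjacent positions of 1 gene. The last of the 4 was an exon peak (53607796 to 53608110) with 6 tags and 9.86-fold.

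The 3 remaining peaks lay near the 3′ end of HUWE1, at 89.8% to 93.0% of the span. The exon peak at 53574340 to 53575326 was the largest peak of both genes, with 63 tags over 987 bases and 8.28-fold enrichment, and it alone held 45.0% of the HUWE1 tags. A smaller exon peak of 7 tags (53570744 to 53571032) reached 5.15-fold, and 701 bases beyond it an intron peak of 6 tags (53569817 to 53570042) reached 4.29-fold. As in UBR4, the end of the transcript was free of peaks, over the last 10761 bases.

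**Figure D3:**
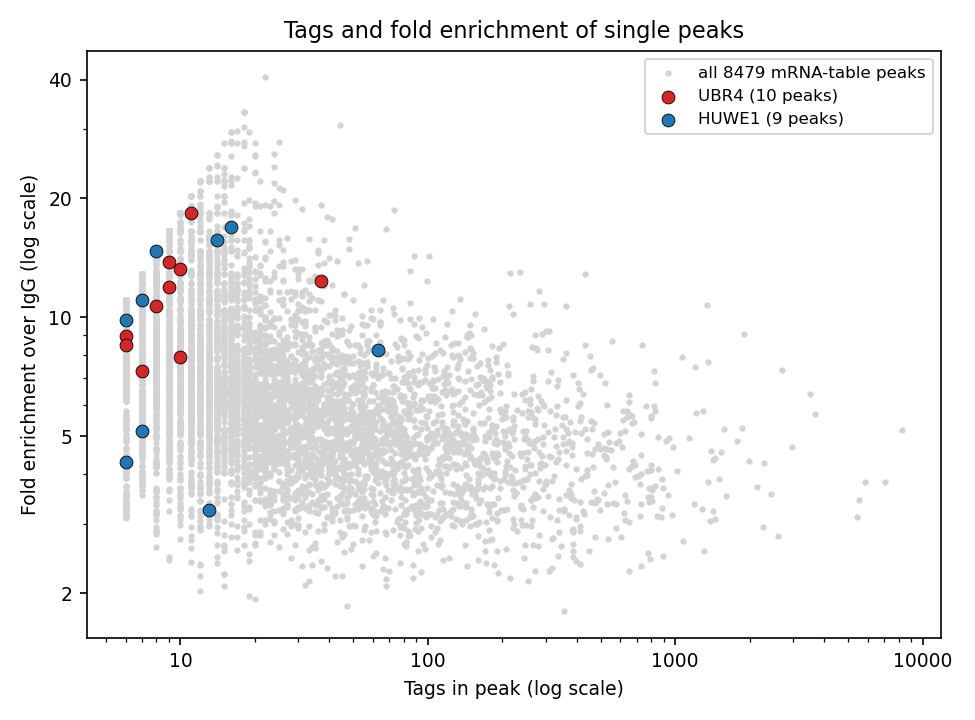
Fold enrichment over IgG against tags per peak, both on log scales, for the 8479 peaks of the mRNA table (grey), the 10 UBR4 peaks (red) and the 9 HUWE1 peaks (blue). Most points of both genes sit between 6 and 16 tags, and only the UBR4 upstream peak (37 tags) and the HUWE1 exon peak near the 3′ end (63 tags) lie to the right of them.

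Exon peaks made up 90% of the UBR4 peaks (95% Wilson interval 59.6 to 98.2%) and 55.6% of the HUWE1 peaks (26.7 to 81.1%), against 32.4% of all mRNA peaks. Intron peaks were 0 of 10 for UBR4, which allows a share of up to 27.8%, and 3 of 9 for HUWE1 (33.3%, 12.1 to 64.6%). The intervals of the genes overlap, which is not a test, so a difference in class between UBR4 and HUWE1 was not shown. The intervals cover counting error only, and peaks of 1 transcript are not independent.

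The folds of both genes overlapped widely. The median was 11.31 for UBR4 and 9.86 for HUWE1, with ranges of 7.31 to 18.4 and 3.25 to 16.96. A fold of at least 10 was reached by 6 of 10 UBR4 peaks and 4 of 9 HUWE1 peaks, against 24.0% of all mRNA peaks. All UBR4 peaks and 6 of the 9 HUWE1 peaks exceeded the median of all mRNA peaks. These folds rest on 6 to 16 tags for 17 of the 19 peaks.

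Both genes had most of their peaks beyond the midpoint of the transcript, 7 of 9 inside UBR4 and 7 of 9 inside HUWE1 (77.8%, 45.3 to 93.7% for each). By tags, this share was higher than by peaks in both. It was not computed for all mRNA peaks, so it is not shown to be particular to these genes. Among all exon peaks of the mRNA table, the last 10% of the gene held 35.1% (33.4 to 36.9%), and it held 1 of 9 exon peaks of UBR4 (11.1%, 1.99 to 43.5%) and 1 of 5 of HUWE1 (20%, 3.62 to 62.5%). Both intervals, which again cover counting error only, include the share of all genes. In each gene, 1 further exon peak lay just before this limit, at 89.4% and 89.8% of the span. The peaks covered 2636 bases of UBR4, or 1.94% of its span, and 4564 bases of HUWE1, or 2.95%.

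The third question was whether peaks inside these genes had been named for other genes. Inside UBR4 no such peak was found in either table. Inside HUWE1 the lncRNA table held 3 further peaks, each named for both MIRLET7F2 and MIR98 and classed as upstream of them. None of the 3 was listed in the mRNA table.

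The peak nearest to the microRNAs (53586255 to 53586587) had 11 tags and 11.48-fold enrichment, 2186 bases before the MIRLET7F2 start. The next (53592006 to 53592288) had 10 tags and 14.77-fold at 7912 bases. The farthest (53602553 to 53602890) had 6 tags and 10.44-fold at 18486 bases. All 3 thus had folds above 10 on few tags, and none overlapped a microRNA hairpin.

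Along HUWE1 these peaks lay at 71.8%, 78.6% and 82.3% of the span, within the 32469 bases between 53575326 and 53607796 that held no peak named for HUWE1. With them the gene held 12 peaks and 167 tags, more peaks than UBR4. No HUWE1-named peak lay within 19993 bases before the MIRLET7F2 start, the farthest reach of the upstream class, and the nearest was at 23718 bases. Over both tables, 1775 peaks of the lncRNA table were absent from the mRNA table, and 227 of them (12.8%) lay inside a listed mRNA transcript. For the upstream class, to which the 3 peaks belong, this held for 155 of 444 (34.9%). The exon or intron class of the 3 peaks relative to HUWE1 is not given in the tables. The nearest edge of these peaks was 2020 bases from the MIRLET7F2 start, so the listed hairpins lie outside them. HUWE1 and both microRNA genes lie on the same strand, so HUWE1 RNA and any longer microRNA precursor cannot be told apart there.

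The last question was whether related genes had peaks as well. For reference, peaks were named for 25.6% of 20056 protein-coding genes, and 17.9% had one that overlapped the transcript. Every gene list below was chosen with earlier results of these data known, so its share and interval are a description and not a test. Of the 27 other HECT ligases, 9 had a peak (33.3%, 18.6 to 52.2%, beside the reference of 25.6%). All 9 had an overlapping one, beside a reference of 17.9%. NEDD4, a ligase of membrane proteins, had 6 peaks, of which 2 overlapped it. HERC4 had 3 intron peaks of up to 16.56-fold, and AREL1, HERC1 and SMURF1 had 2 peaks each. HECTD2, HERC2 and UBE3B had 1 peak each. No peak was named for the other 18, among them TRIP12, UBE3A, ITCH, NEDD4L, SMURF2, WWP1 and WWP2.

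Of the UBR-box proteins besides UBR4 only FBXO11, an F-box protein with a UBR box, had peaks, 2 in number with the higher fold at 12.78, and members without a peak included UBR1, UBR2, UBR3 and UBR7. That made 1 of 6 other members (16.7%, 3.01 to 56.4%, beside the reference of 25.6%).

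Of the giant ligases, peaks were named for 4 of the 6 members other than UBR4 and HUWE1 (66.7%, 30.0 to 90.3%). The reference of 25.6% is for genes of any length. The list was chosen with earlier results of these data known, so the share is a description and not a test. RNF213, a very large RING ligase with an ATPase core, had 7 peaks inside its 138 kb span, 5 of the intron class and 2 of the exon class. Its exon peak near the 3′ end held 56 tags at 4.57-fold, next to the 63 tags at 8.28-fold of the corresponding HUWE1 peak. BIRC6, an inhibitor of apoptosis with E2 activity, had 3 peaks, HERC1 had 2 exon peaks, and HERC2 had 1 intron peak of 473 tags at 4.64-fold. MYCBP2 and HECTD4 had none. The total tags of RNF213, 113, equalled those of UBR4.

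**Figure D4:**
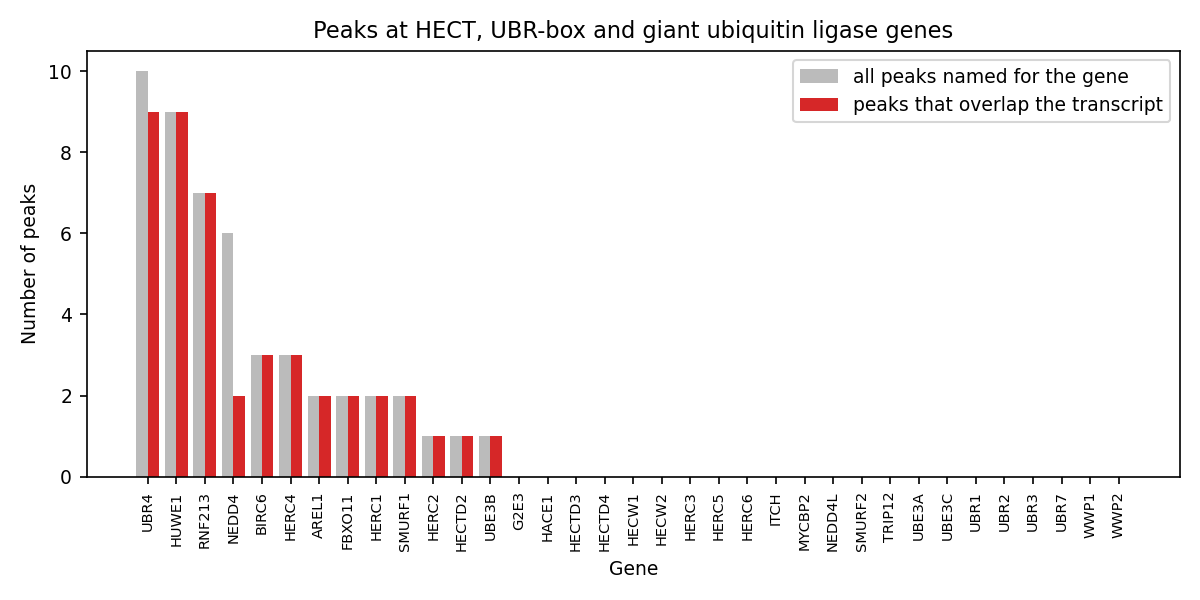
Number of peaks for HECT, UBR-box and giant ubiquitin ligase genes, with grey bars for all peaks named for a gene and red bars for those that overlap its transcript. UBR4 (10 and 9) and HUWE1 (9 and 9) lead, followed by RNF213 (7 and 7) and NEDD4 (6 and 2), and genes without bars had no peak.

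Genes that act with UBR4 or in N-degron recognition had peaks at 5 of 14 members (35.7%, 16.3 to 61.2%, beside the reference of 25.6%). All 5 had an overlapping one, beside a reference of 17.9%. KCMF1, the ligase partner of UBR4, had 5 peaks of up to 7.5-fold, of which 3 overlapped it. ATE1, the enzyme that adds arginine to protein N-termini, had 3 peaks, and its exon peak of 12 tags reached 20.88-fold, above every peak of UBR4 and HUWE1. CALM2 and CALM3, which encode calmodulin, and NTAN1, an amidase that prepares N-degrons, had 1 promoter peak each, at folds of 6.73, 3.09 and 1.97. Members without a peak included ADO, METAP1, METAP2, NTAQ1, UBE2A, UBE2B, ZER1 and ZYG11B.

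Of 12 genes for proteins on which HUWE1 is known to act, 7 had a peak (58.3%, 32.0 to 80.7%, beside the reference of 25.6%). An overlapping peak was found for 5 of the 12, beside a reference of 17.9%. This list was also chosen with earlier results of these data known, so its shares are a description and not a test. MFN2, a mitochondrial fusion protein, had 4 peaks of up to 14.72-fold, and TOPBP1 and POLL had 2 each. CDC6, MYCN and POLB had 1 peak each, and none of those at POLL and POLB overlapped the gene. No peak was named for MCL1, MYC, HDAC2, DDIT4 or ZBTB17. Of 8 genes for ubiquitin activation and for ubiquitin-conjugating (E2) enzymes that serve HECT ligases, 3 had a peak (37.5%, 13.7 to 69.4%, beside the reference of 25.6%). Each of the 3 had an overlapping one, beside a reference of 17.9%. UBE2D2 had 2 peaks, and UBA1 and UBE2K had 1 each. UBA6, UBE2D1, UBE2D3, UBE2L3 and UBE2S had none. Absence means here that no row of the table carries the gene's name. Expression in these cells was not analysed here, so none of the shares is set against it.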

How the data were processed

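RIP was done in MKN-28 cells with a PTBP1 antibody or rabbit IgG, and 1 library of each was sequenced after depletion of ribosomal RNA. The submitters' processing notes name cutadapt (1.9.3), Bowtie2 (2.2.4) and hg19. For the peak caller, no name is given in the sources used here. The authors deposited peaks of PTBP1 over IgG with the count of tags in each peak, the fold enrichment as a ratio, a p score (the negative log10 of p multiplied by 10) and the false discovery rate as a percent. Which library the tags were counted in is not stated, and total tags per library are unknown, so no depth per library is given. The other deposited columns used were the peak length, summit and distance to the transcript start.

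Peaks were counted once per gene and position, and overlap meant at least 1 shared base with the listed transcript. Distances run to peak midpoints. The promoter tables repeat rows of the full tables and were not used. Of 5186 mRNA symbols, 5123 matched RefSeq (GRCh38.p14) by accession. RefSeq gave names, gene classes and sequences only. The counting was tested on simulated data. Members, lists and the rule for named genes (listed family members with a peak, the 5 further genes with most peaks, and genes with peaks inside UBR4 or HUWE1) were chosen with earlier results of these data known. CEP350 is outside that rule and was named after seeing its values. The part of the rule based on protein length was not applied, and a few genes it would name are not reported here. Alternatives were fold, tag and p score minimums, merged peaks, both tables together, tag weights and overlap. The work was done in Python (3.11.15) with numpy (2.4.6), pandas (2.3.3), matplotlib (3.10.9) and scipy (1.17.1).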

Additional observations from a re-analysis of the deposited data

Results flagged for a closer look

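The lncRNA table, which is outside the mRNA comparison, held 3 peaks inside HUWE1 that no row of the mRNA table lists. They had 27 tags in all and folds of 10.44, 14.77 and 11.48 over IgG, with deposited false discovery rates of 43.91%, 57.36% and 46.55%.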

How the results depend on the processing

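The number of peaks depended on the tag and fold minimums. With at least 20 tags, 1 UBR4 peak and 1 HUWE1 peak were left, both genes tied at rank 585, the exon share was 0% for UBR4 and 100% for HUWE1, and peaks per 100 kb fell to 0.737 and 0.647. With a fold of at least 10 there were 6 UBR4 and 4 HUWE1 peaks, and 4 HUWE1 peaks had a p score of at least 50. By total tags the ranks were 833 for UBR4 and 706 for HUWE1. Without its peak with most tags HUWE1 had 77 tags. A peak of at least 20 tags was found for 5 HECT ligases, 2 genes of the N-degron list and 4 HUWE1 substrates, and for 12.1% of protein-coding genes. The counts and the peaks per 100 kb under a minimum are lower because fewer peaks are kept. The other alternatives moved the counts by at most 1.5 times and the shares within their intervals. Median folds, which have no interval, ran from 10.69 to 12.38 for UBR4 and from 8.28 to 9.86 for HUWE1. With only overlapping peaks, UBR4 had 6.63 peaks per 100 kb. With a fold of at least 10 or only overlapping peaks, the ranks by peaks lay between 2 and 4. No paired analysis was possible because each group had 1 library. Few tags per peak and the unknown library totals limit every fold given.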

Other observations

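Of the 19 peaks, 3 had folds that were whole multiples, within a tolerance of 0.006, of 1.84, the difference between the most frequent folds of the mRNA table (11.04 and 9.2). They were 18.4 at UBR4 with 11 tags (10 times) and 14.72 and 11.04 at HUWE1 with 8 and 7 tags (8 and 6 times). Such folds made up 18.1% of all mRNA peaks. The summit lay within 1 base of the middle of the peak for 8 of 10 UBR4 peaks and 5 of 9 HUWE1 peaks. This was not counted over all mRNA peaks, so it is not shown to be particular to these genes.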
